A study of Pyrus pyrifolia with 12 samples.

Results

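The Cytochrome P450 71A4 copies are the 6 genes of the deposited pear table whose best Swiss-Prot hit carries the name Cytochrome P450 71A4, a protein of eggplant (Solanum melongena). They were taken by that name alone from 43732 genes, and each also had a hit to the cytochrome P450 domain. The family was chosen by the level of 1 copy, gene27907, which was known to be high in the variety Akibae, so the levels of gene27907 are described below without a test. RNA was sequenced from untreated skin of mature fruit of the Asian pear Pyrus pyrifolia, with 3 libraries for each of 4 varieties, in a study of russet skin. Akibae was harvested 120 days after full bloom, Nijisseiki at 135 days, and SuCui NO.1 and CuiYu both at 105 days. Outside the pair SuCui NO.1 and CuiYu, an effect of variety and one of harvest day cannot be told apart. The labels speak of biological replicates without saying whether these were separate trees, so p values measure the spread between these libraries.

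Cytochrome P450s are heme enzymes that add oxygen to small molecules such as terpenes, phenolics, fatty acids and hormones. They sit on the endoplasmic reticulum and take their electrons from NADPH--cytochrome P450 reductase, in some cases with help from cytochrome b5. The 71 family is among the large families of plant P450s. In Arabidopsis, relatives in the 71A subfamily take part in making the defence compound camalexin, and in avocado a 71A P450 is abundant in ripening fruit. A Swiss-Prot name gives the nearest known protein, and does not give the substrate of the pear enzyme.

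The libraries held 11981445 to 15136559 counts. Levels are given as CPM, the read count relative to the scaled library total, and comparisons between genes as FPKM, which also divides by gene length. A single read was worth 0.0695 to 0.0868 CPM. Of the list of epidermis and cuticle markers (27 genes, 5 with no read in any library), the summed level was 606 to 629 CPM in CuiYu, 116 to 223 in SuCui NO.1, 44.8 to 231 in Nijisseiki and 24.9 to 39.2 in Akibae. In Akibae, 13 of the 27 had no read, against 7 in each other variety. Whether every gene of this list marks cuticle rather than cork was not tested, so its sum may mix both. The 10 cork markers summed to 165 to 210 CPM in Akibae and to between 81.3 and 421 CPM in the other varieties. The 5 phloem markers summed to 4.92 to 41.4 CPM in Akibae and to at most 10.4 CPM elsewhere, and the 5 xylem markers to at most 1.35 CPM in any library. In bulk skin, fewer cells of a type and less RNA per cell cannot be told apart.

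The copies differed in abundance by orders of magnitude, and nearly all their reads came from a single gene in a single variety. gene27907 lies on the plus strand of chromosome 17 from 5925202 to 5926938, with a gene model of 1449 bases, in a genome build not given in the sources used here. It had 3932, 4364 and 6850 reads in Akibae replicates 1, 2 and 3. It had 19, 1 and 10 reads in those of Nijisseiki, 52, 10 and 32 in SuCui NO.1, and 1, 2 and 0 in CuiYu. Every Akibae library was above every other library, and every SuCui NO.1 library was above every CuiYu library, while Nijisseiki overlapped both.

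In CPM, gene27907 stood at 303, 348 and 513 in the Akibae libraries, a mean of 388 ± 111 (SD, n = 3). The means were 2.46 ± 1.81 CPM in SuCui NO.1, 0.807 ± 0.794 in Nijisseiki and 0.0733 ± 0.0752 in CuiYu (n = 3 each). The ratio of its reads in Akibae was 163 to SuCui NO.1 (95% counting interval 133 to 202) and 515 to Nijisseiki (361 to 764), and it was 5358 (1833 to 25990) to the 3 reads of CuiYu. These intervals and all floors below cover counting error only. SuCui NO.1 and CuiYu share a harvest day, and their ratio was 32.8 (10.9 to 162). In order of the means, SuCui NO.1 followed Akibae, then Nijisseiki, then CuiYu. The ranges of the neighbours SuCui NO.1 and Nijisseiki overlapped, at 0.742 to 4.35 against 0.0721 to 1.65 CPM, as did those of Nijisseiki and CuiYu (0 to 0.150 CPM). Without the library labelled Nijisseiki replicate 1, the mean of Nijisseiki was 0.386 CPM. Without SuCui NO.1 replicate 1 that of SuCui NO.1 was 1.52, and without CuiYu replicate 2 that of CuiYu was 0.0348 CPM.

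The Akibae library with the highest level of gene27907, replicate 3, was also the one with the highest sum of phloem markers, 41.4 CPM, of which a gene named SIEVE ELEMENT OCCLUSION B (gene37837) gave 37.1. In replicates 1 and 2, where gene37837 stood at no more than 5.82 CPM, gene27907 stood at 303 and 348 CPM. Without replicate 3 the Akibae mean of gene27907 was 325 CPM. The low sum of the epidermis and cuticle list also set Akibae apart. Whether phloem or cuticle content had a part in the level of gene27907 was not tested. A count near 0 cannot tell a silent copy from a copy missing in that variety, or from one too unlike the reference for its reads to align.

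**Figure D1:**
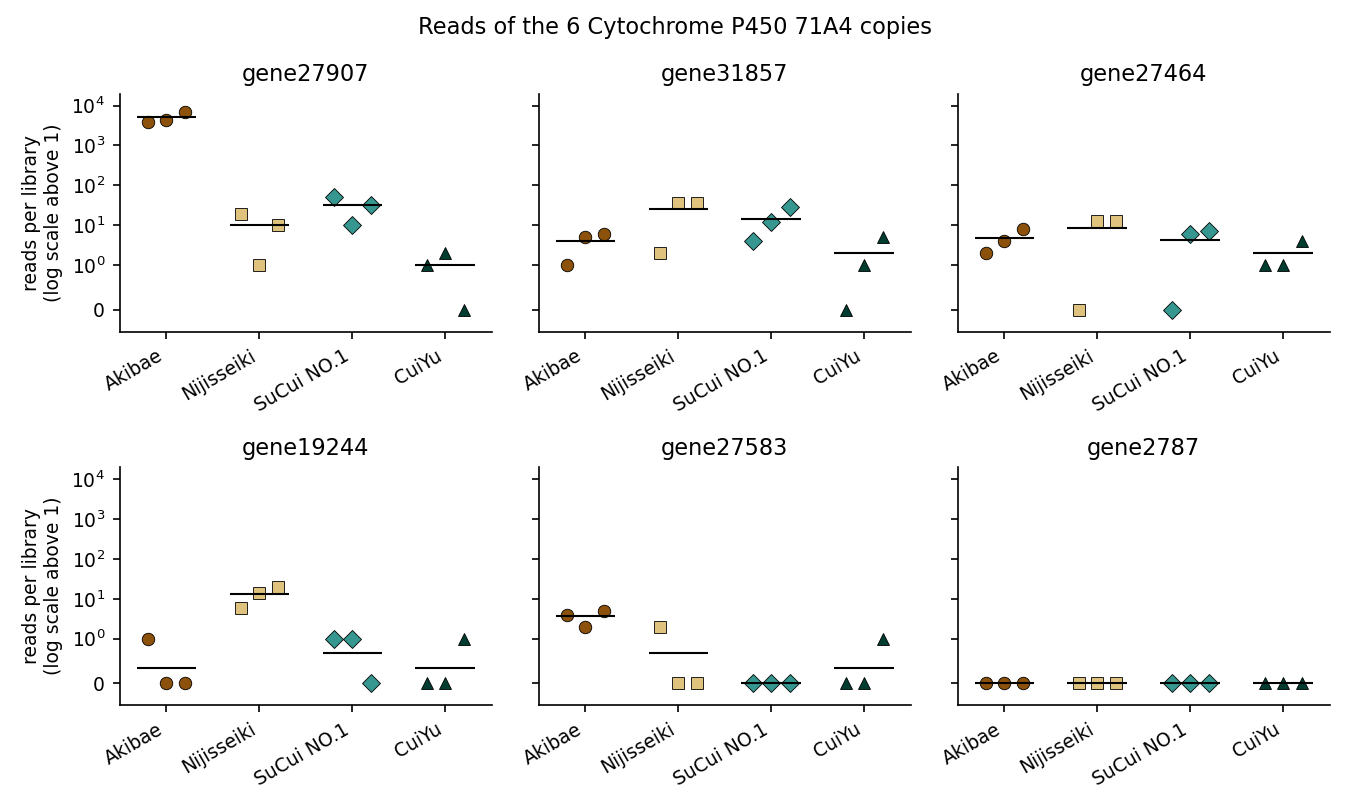
Reads per library (log scale above 1) of the 6 copies, with 3 points per variety and a bar at their mean. gene27907 had 3932 to 6850 reads in Akibae and at most 52 elsewhere, while no other copy passed 37 reads in any library.

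By a ratio with 0.5 CPM added, no other gene of the table separated Akibae as widely. When the lowest Akibae library was divided by the highest library of the other varieties, with 0.5 CPM added to both, the ratio was 62.5 for gene27907. The gene ranked next had 14.2, and after it gene10378, named Nucleobase-ascorbate transporter 3, had 12.1. The order depends on the added 0.5 CPM. The lowest Akibae and highest other library stood at 303 and 4.35 CPM for gene27907, and at 7.85 and 0.0868 CPM for the gene ranked next. For gene10378 the highest library outside Akibae stood at 0 CPM. This ranking is a description of the levels for which gene27907 was singled out.

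gene27907 was also among the abundant P450 genes of Akibae skin. Among 333 genes with the P450 domain or a P450 71 name, it ranked 2 by mean FPKM in Akibae, at 259 ± 72.7 (SD, n = 3). Ahead of it stood gene780, named trans-cinnamate 4-monooxygenase, which makes coumarate in the phenylpropanoid pathway, at 411 ± 97.3 FPKM. In SuCui NO.1, Nijisseiki and CuiYu, gene27907 ranked 108, 132 and 166 among the same genes. Over the whole table it ranked 381, 321 and 189 by FPKM in Akibae replicates 1, 2 and 3.

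It took 7.33 ± 1.63% of all P450 counts in Akibae, against 0.0383 ± 0.0253% in SuCui NO.1, 0.0136 ± 0.0126% in Nijisseiki and 0.00109 ± 0.00115% in CuiYu (SD, n = 3 each). Of the counts of the 23 genes named Cytochrome P450 71A, it took 84.6 ± 3.37% in Akibae. The P450 counts without gene27907 summed to 4859 ± 228 CPM in Akibae, the lowest mean of the 4 varieties. They summed to 6573 ± 462 CPM in CuiYu, 6137 ± 645 in SuCui NO.1 and 5715 ± 453 in Nijisseiki.

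**Figure D2:**
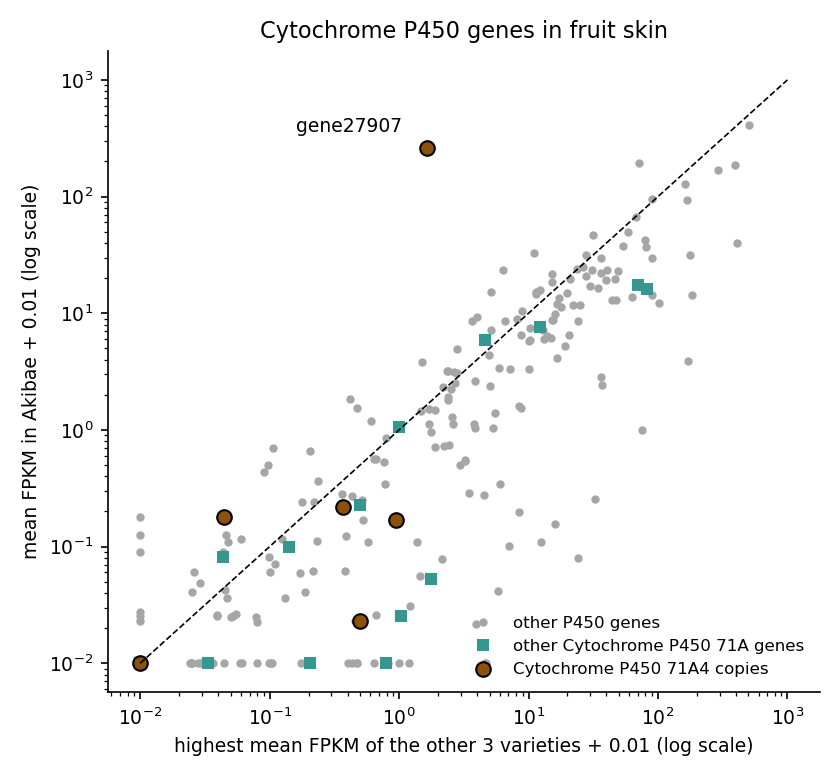
Mean FPKM in Akibae against the highest mean FPKM of the other 3 varieties for 333 P450 genes (0.01 added, both axes log, dashed line for equal levels). gene27907 lies far above the line at 259 FPKM in Akibae, while the other copies lie at or below 1 FPKM on both axes.

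The other 5 copies together held 144 reads in Nijisseiki, 59 in SuCui NO.1, 38 in Akibae and 14 in CuiYu. Their summed level was 3.46 ± 2.25, 1.45 ± 1.05, 0.972 ± 0.412 and 0.343 ± 0.406 CPM in the same order (SD, n = 3 each). With gene27907 included, the sum of the 6 copies was 389 ± 111 CPM for Akibae, 4.27 ± 1.58 for Nijisseiki, 3.91 ± 1.52 for SuCui NO.1 and 0.416 ± 0.350 for CuiYu. The sum does not depend on how reads were split between the 6 copies, though reads shared with other genes could still change it. In Akibae it was nearly all gene27907, for which the family was chosen, so its rank there is not a separate result.

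gene31857 (chromosome 3, 12240868 to 12242952, minus strand) was the second most abundant copy. It had 1, 5 and 6 reads in the Akibae libraries, 2, 37 and 37 in Nijisseiki, 4, 12 and 28 in SuCui NO.1, and 0, 1 and 5 in CuiYu. The level was 1.81 ± 1.42 CPM in Nijisseiki, 1.08 ± 0.851 in SuCui NO.1, 0.308 ± 0.202 in Akibae and 0.148 ± 0.194 in CuiYu (SD, n = 3 each). The ranges of each neighbouring pair in that order overlapped.

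Of the 5 copies besides gene27907, gene31857 alone had enough reads for the test across all genes. With edgeR's quasi-likelihood test and Benjamini-Hochberg adjustment it was called in 0 of 6 pairs of varieties, with an unadjusted p below 0.05 in 3. Over all 26307 genes tested, the share called was 2.53% in Akibae against Nijisseiki, 16.3% in Akibae against SuCui NO.1 and 15.1% in Akibae against CuiYu. It was 12.4% in Nijisseiki against SuCui NO.1, 15.4% in Nijisseiki against CuiYu and 17.4% in SuCui NO.1 against CuiYu. The largest difference of gene31857 was between Nijisseiki and CuiYu, at a log2 fold change of 3.55 ± 1.20 (SE, adjusted p = 0.071). Between SuCui NO.1 and CuiYu, harvested on the same day after bloom, it was 2.81 ± 1.20 (adjusted p = 0.13). The difference between Nijisseiki and CuiYu passed with DESeq2 (adjusted p = 0.023) and without the library labelled Nijisseiki replicate 1 (0.027).

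gene19244 (chromosome 16, 11577443 to 11579619, plus strand) was counted almost wholly in Nijisseiki. It had 6, 14 and 20 reads in the Nijisseiki libraries, 1, 0 and 0 in Akibae, 1, 1 and 0 in SuCui NO.1, and 0, 0 and 1 in CuiYu. Each Nijisseiki library was above the 9 others, which held at most 1 read each. The level in Nijisseiki was 0.976 ± 0.440 CPM (SD, n = 3). The ratio of its reads in Nijisseiki was 39.2 to Akibae (95% counting interval 6.65 to 1587), 19.9 to SuCui NO.1 (5.15 to 170) and 41.6 to CuiYu (7.05 to 1684).

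The read minimum kept gene19244 out of the test across all genes. In the fit with no minimum, Nijisseiki was higher than SuCui NO.1 by a log2 fold change of 4.03 (edgeR, adjusted p = 0.043) and than CuiYu by 4.87 (0.023), while Akibae against Nijisseiki did not pass (-4.81, 0.073). With 1 library left out, gene19244 passed the read minimum in 10 of 12 fits, all but those without Nijisseiki replicate 2 or 3. It thus passed only through the variety where it is high, so calls in these fits are no separate support. The call against SuCui NO.1 was lost without any 1 SuCui NO.1 library (edgeR, adjusted p = 0.06, 0.055 and 0.065). The call against CuiYu was lost without CuiYu replicate 1 (0.061) or 2 (0.06). DESeq2, which sets its own minimum, called all 3 of these pairs, with adjusted p of 0.024 for Akibae, 0.025 for SuCui NO.1 and 0.0075 for CuiYu.

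gene27464 (chromosome 6, 16017810 to 16019711, plus strand) had few reads in each variety. It had 2, 4 and 8 reads in the Akibae libraries, 0, 13 and 13 in Nijisseiki, 0, 6 and 7 in SuCui NO.1, and 1, 1 and 4 in CuiYu. The 4 varieties overlapped, with 0.616 ± 0.533 CPM in Nijisseiki and 0.146 ± 0.128 in CuiYu as the highest and lowest means (SD, n = 3 each). In each of the 4 varieties, the library with the fewest reads of gene31857 was also the lowest, or tied as lowest, for gene27464. That library was replicate 1 in all 4 varieties. Without it the Nijisseiki means were 2.63 CPM for gene31857 and 0.923 CPM for gene27464.

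gene27583 lies on chromosome 3 from 2837517 to 2840444 on the plus strand, far from gene31857 on the same chromosome. It had 4, 2 and 5 reads in the Akibae libraries, 2, 0 and 0 in Nijisseiki, 0 in each of SuCui NO.1, and 0, 0 and 1 in CuiYu. Its Akibae range met that of Nijisseiki at 2 reads and lay above those of SuCui NO.1 and CuiYu. Against a floor of 3 reads over the 3 SuCui NO.1 libraries, the ratio of gene27583 reads in Akibae was 3.71. This value takes the 11 Akibae reads as exact, so it is not a lower limit like those of the intervals. The ratio of its reads in Akibae was 5.61 to Nijisseiki (95% counting interval 1.22 to 52.1) and 11.7 to CuiYu (1.70 to 503). In the edgeR fit with no minimum, none of the 6 pairs passed for gene27583, with 0.094 as the lowest adjusted p, for Akibae against SuCui NO.1.

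The remaining copy, gene2787 (chromosome 8, 1973234 to 1980567, plus strand), had 0 reads in the 12 libraries, which allows a level of up to 0.0727 to 0.0771 CPM per variety. It has the longest gene model of the 6, at 2337 bases. The other models were 1449 to 1914 bases long.

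After each copy was centred on its own mean, the root mean square difference of log2(CPM + 0.5) over the 12 libraries was 3.49 to 4.05 between gene27907 and the 4 other copies with reads. Among those 4 copies it was 0.53 to 1.06, and it was least between gene31857 and gene27464. The copies with few reads vary little on this scale because 0.5 CPM is close to their level.

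By position, 3 of the copies shared a neighbour that the choice by name had not used. The table held 3 genes named Rhodanese-like domain-containing protein 11, a chloroplast protein with a sulfurtransferase-type domain, and all 3 lay within 100 kb of a copy. On chromosome 3, gene31856 of that name lay 1.75 kb from gene31857, and on chromosome 16 gene19243 lay 1.64 kb from gene19244. On chromosome 6, gene27462 of that name overlapped gene27464 on the opposite strand.

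The blocks on chromosomes 3 and 16 had further genes in common. Read in the direction of the copy, an F-box protein At5g07610 gene lay on the same strand upstream, with its near end at -13.3 kb from the start of gene31857 and at -13.15 kb from that of gene19244. The rhodanese-like gene and then a phospholipase A2-alpha gene, of an enzyme that frees fatty acids from phospholipids, followed downstream on the opposite strand. In the table there were 8 genes with that F-box name and 5 with that phospholipase name, of which 2 each lay within 100 kb of a copy. Within these matching blocks the levels differed. The copy on chromosome 16 was counted almost wholly in Nijisseiki, and that on chromosome 3 in Nijisseiki and SuCui NO.1. The neighbours differed too, as the phospholipase gene gene19241 had 34.6 CPM in Akibae against 10.3 in CuiYu and its counterpart gene31854 at 0.442 and 1.17 CPM.

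**Figure D3:**
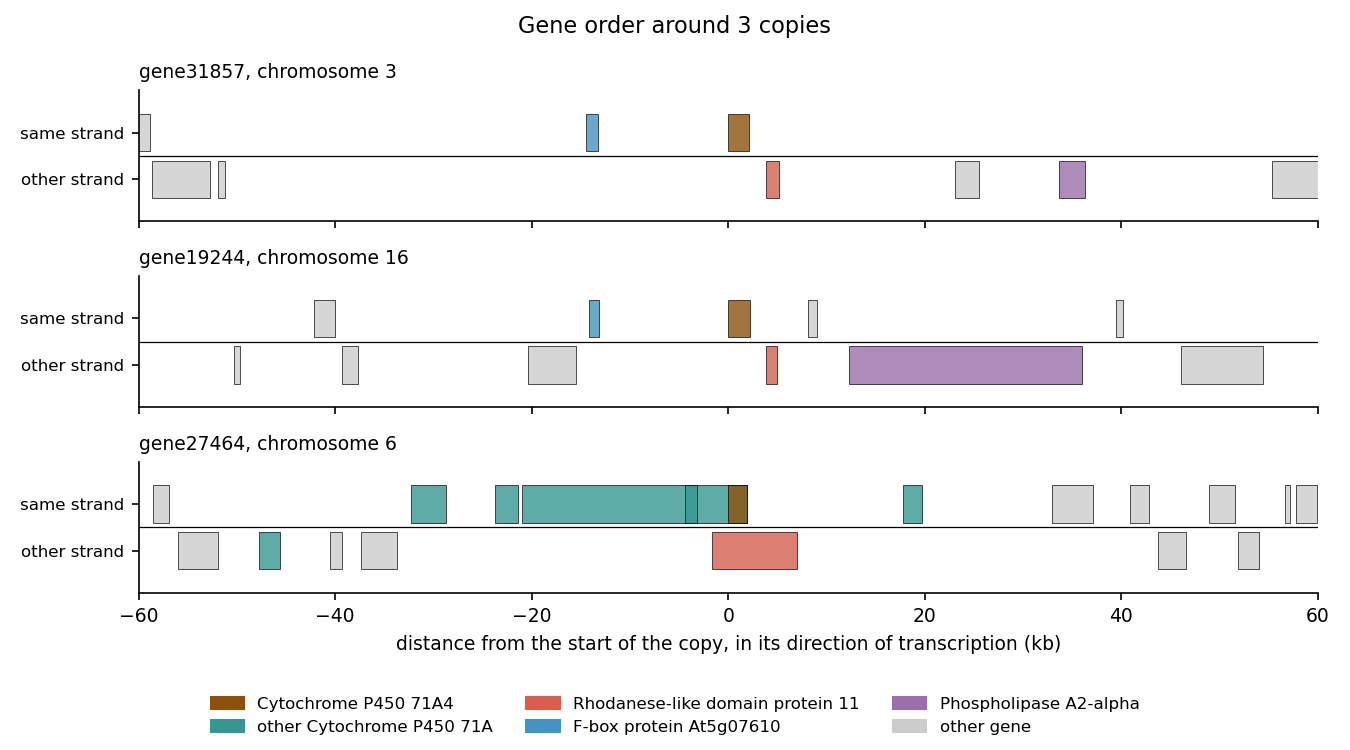
Genes within 60 kb of the copies on chromosomes 3, 16 and 6, placed by distance in kb from the start of the copy and drawn above the line where they share its strand. A rhodanese-like gene lies beside each copy, and the F-box and phospholipase genes keep the same order and strand on chromosomes 3 and 16.

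The copy on chromosome 6 lay in a cluster. Within 100 kb of gene27464 there were 6 genes with other P450 71A names, against 1 near gene2787 and 0 near the other 4 copies. gene27464 lay wholly inside the span of gene27463 (15996768 to 16019712), which is named P450 71A26 and is on the same strand. Reads of overlapping genes can be split between them or dropped, so the level of gene27464 is uncertain. gene27463, singled out once its values were known, had mean levels of 22.2 CPM in SuCui NO.1, 13.6 in Akibae, 8.60 in Nijisseiki and 5.96 in CuiYu.

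gene27907 had no such company. Of 26 other genes within 100 kb of it, 17 had a mean of at least 1 CPM, and their log2 ratio of Akibae to the highest other variety, with 0.5 CPM added, ran from -2.04 to 0.35. For gene27907 itself the value was 7.04. Its nearest expressed neighbour upstream, gene27906, named probable serine/threonine-protein kinase abkB, stood at 9.74 ± 1.24 CPM in Akibae and at 6.65 to 7.96 in the other varieties, and did not pass in any of the 6 pairs (edgeR, lowest adjusted p 0.25). The next, gene27905, has no Swiss-Prot name. It averaged 37.1 ± 12.5 CPM for Akibae, 31.2 ± 18.6 for Nijisseiki, 10.1 ± 4.15 for SuCui NO.1 and 8.61 ± 2.69 for CuiYu (SD, n = 3 each). It was higher in Akibae than in SuCui NO.1 (edgeR, log2 fold change 1.87 ± 0.50, adjusted p = 0.027) and CuiYu (2.10 ± 0.50, 0.017), and higher in Nijisseiki than in CuiYu (1.86 ± 0.50, 0.029). Downstream, gene27908, also without a name, was higher in CuiYu (3.86 ± 0.562 CPM) than in each other variety. The adjusted p (edgeR) was 0.013 against Akibae (1.03 ± 0.140 CPM), 0.013 against Nijisseiki (1.02 ± 0.390) and 0.024 against SuCui NO.1 (1.24 ± 0.486).

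The calls of gene27905 ended without Akibae replicate 1 or 2, with SuCui NO.1 replicate 1 left out for the first pair and CuiYu replicate 1 or 2 for the second, at an adjusted p of 0.057 to 0.086. Its call in Nijisseiki against CuiYu ended without Nijisseiki replicate 2 or 3 or CuiYu replicate 1 or 2 (0.056 to 0.11). The calls of gene27908 all ended without CuiYu replicate 2. The one against Akibae also ended without Akibae replicate 2, and the one against SuCui NO.1 without CuiYu replicate 1 and without replicate 2 or 3 of SuCui NO.1 (0.054 to 0.09 over the 3 calls).

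Of the nearest expressed neighbours of the other copies, gene27582 beside gene27583, named ubiquitin-conjugating enzyme, was higher in Akibae (6.01 ± 1.37 CPM) than in SuCui NO.1 (1.41 ± 0.907, edgeR, log2 fold change 2.09 ± 0.49, adjusted p = 0.016) and CuiYu (1.62 ± 0.247, 1.88 ± 0.49, 0.024). The first call ended without Akibae replicate 1 or 2, and the second without either of these or any 1 CuiYu library, at 0.05 to 0.1. Against Nijisseiki (1.49 ± 0.575 CPM), gene27582 had a like log2 fold change of 2.01 ± 0.49 that did not pass (edgeR, adjusted p = 0.06). On the other side of gene27583, gene27584, named chitin-inducible gibberellin-responsive protein, ranged from 1.31 CPM in CuiYu to 3.02 in Akibae and did not pass in any pair (edgeR, lowest adjusted p 0.072). Near gene27464, gene27460, named E3 ubiquitin-protein ligase, was higher in SuCui NO.1 (12.4 ± 4.30 CPM) than in Akibae (3.08 ± 0.800, edgeR, adjusted p = 0.0071) and Nijisseiki (2.60 ± 1.10, 0.0048), and both calls held under all 17 alternatives. It was also higher in CuiYu (8.10 ± 2.31 CPM) than in Akibae (adjusted p = 0.038, lost in 7 of 17 alternatives at 0.05 to 0.14, among them the omission of any 1 Akibae library) and Nijisseiki (0.02). The latter call ended without Nijisseiki replicate 2 or 3 or CuiYu replicate 2 or 3 (0.054 to 0.085). gene2786, named phosphatidylserine decarboxylase, lies next to gene2787 and had means of 41.1 to 65.3 CPM in the 4 varieties, where gene2787 had 0 reads.

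**Figure D4:**
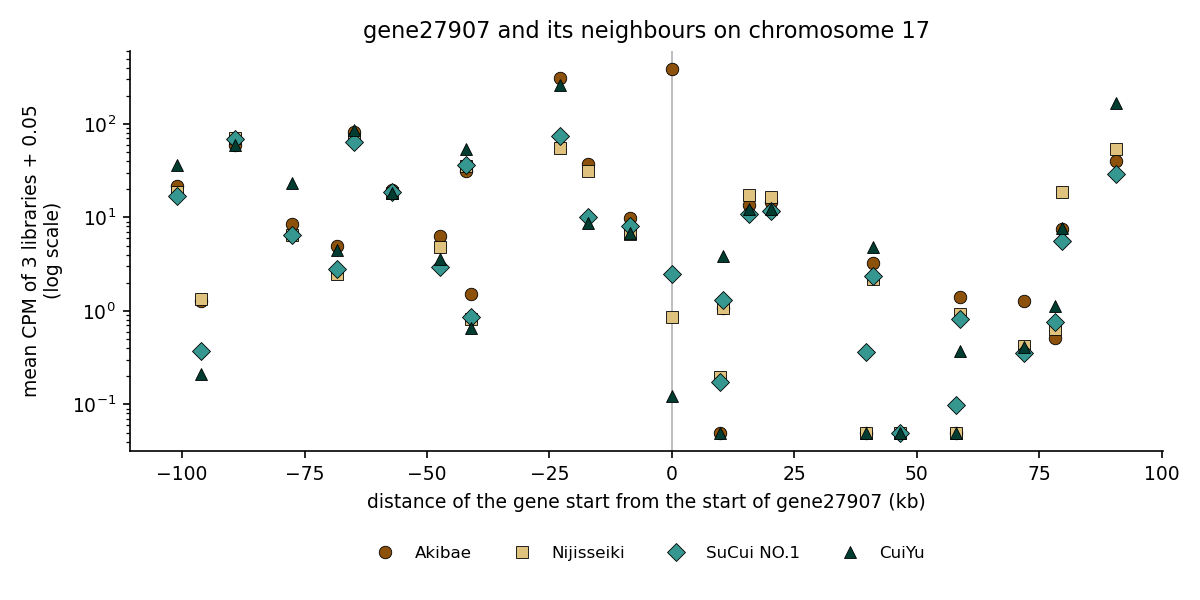
Mean CPM of 3 libraries per variety (0.05 added, log scale) of gene27907 and the 26 genes within 100 kb, by distance of their start in kb. At gene27907 Akibae stands at 388 CPM against at most 2.46 in the other varieties, while the varieties lie close together at most of its neighbours.

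The genes whose profile over the 12 libraries was nearest to that of gene27907 were taken from 18489 tested genes that had a name and averaged 1 CPM or more. The root mean square difference of centred log2(CPM + 0.5) was 1.95 for gene10378, 2.17 for gene4363 and 2.20 for gene30086, where the median of all was 3.76. They were chosen for their levels, so no test is given. gene10378 (chromosome 8, 16328643 to 16329996), named for a family of membrane carriers, had 72, 112 and 288 reads in the Akibae libraries and 0 in each of the other 9. gene4363 (chromosome 16, 136611 to 137765), named MLP-like protein after the latex proteins, stood at 34.8 ± 26.2 CPM in Akibae, 3.50 ± 2.47 in SuCui NO.1, 0.668 ± 0.773 in Nijisseiki and 0.305 ± 0.355 in CuiYu. Its Akibae libraries stood at 58.5, 39.3 and 6.59 CPM, lowest in replicate 3, where gene27907 was highest. gene30086 (chromosome 8, 14338152 to 14345034), named ERECTA after a receptor kinase of organ shape in Arabidopsis, stood at 11.7 ± 0.768 CPM for Akibae, 1.33 ± 0.585 for Nijisseiki and 0.439 ± 0.149 for SuCui NO.1, with 0 reads in CuiYu.

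In none of the tested genes with other P450 71A names were the Akibae libraries above all others. Of 17 such genes, 4 had no read and 5 had enough reads to be tested. With edgeR, 0 of the 5 were called in Akibae against Nijisseiki, in Akibae against SuCui NO.1 or in SuCui NO.1 against CuiYu, with 1, 1 and 2 at an unadjusted p below 0.05 and 1, 0 and 2 called by DESeq2. Of all genes tested, edgeR called 2.53%, 16.3% and 17.4% in these pairs, so with 5 genes a count of 0 lies near that share. In the other 3 pairs, where 12.4% to 15.4% of all genes were called, 1 gene each was called, and each time it was gene41041. The median log2 fold change of the 5 was 0.08 in Akibae against Nijisseiki, 0.34 against SuCui NO.1 and 1.19 against CuiYu, beside -0.03, -0.02 and 0.03 over all genes tested.

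gene41041 (chromosome 11, 4074547 to 4075529), named P450 71A26, had its highest level in Nijisseiki. It had 199, 2047 and 1197 reads there, 150, 165 and 323 in Akibae, 14, 117 and 37 in SuCui NO.1, and 39, 15 and 11 in CuiYu. The level was 82.9 ± 65.2 CPM in Nijisseiki, 16.3 ± 6.89 in Akibae, 4.17 ± 3.98 in SuCui NO.1 and 1.55 ± 1.02 in CuiYu (SD, n = 3 each). Nijisseiki was higher than SuCui NO.1 (edgeR, log2 fold change 4.31 ± 0.89, adjusted p = 0.01) and than CuiYu (5.73 ± 0.97, 0.0031), where 6.68% and 8.03% of all genes tested were higher in Nijisseiki. Akibae was higher than CuiYu (3.38 ± 0.89, 0.026), where 6.99% of all genes were higher in Akibae, a call that ended at 0.054 to 0.10 without Akibae replicate 2 or 3 or CuiYu replicate 2 or 3.

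The most abundant gene of the group by mean FPKM was its neighbour gene41044 (chromosome 11, 4080225 to 4081894), named P450 71A6 after a catmint protein. It stood at 115 ± 27.6 CPM in CuiYu, 46.7 ± 32.6 in Nijisseiki, 28.8 ± 26.1 in Akibae and 24.97 ± 18.1 in SuCui NO.1, and did not pass in any pair (edgeR, lowest adjusted p 0.073, for SuCui NO.1 against CuiYu). Each of the 3 CuiYu libraries, at 96.2 to 147 CPM, was above the 9 others, which reached 79.1 CPM. Of 15 genes named for other subfamilies of the 71 family, 9 had no read and 1 was tested. This was gene37315, named P450 71D9, which stood at 0.896 ± 1.09 CPM in SuCui NO.1 and at 3.35 to 4.36 CPM in the other varieties. It was called in 0 of 6 pairs (edgeR, 2 at an unadjusted p below 0.05 and 1 called by DESeq2), where 2.53% to 17.4% of all genes were called.

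**Figure D5:**
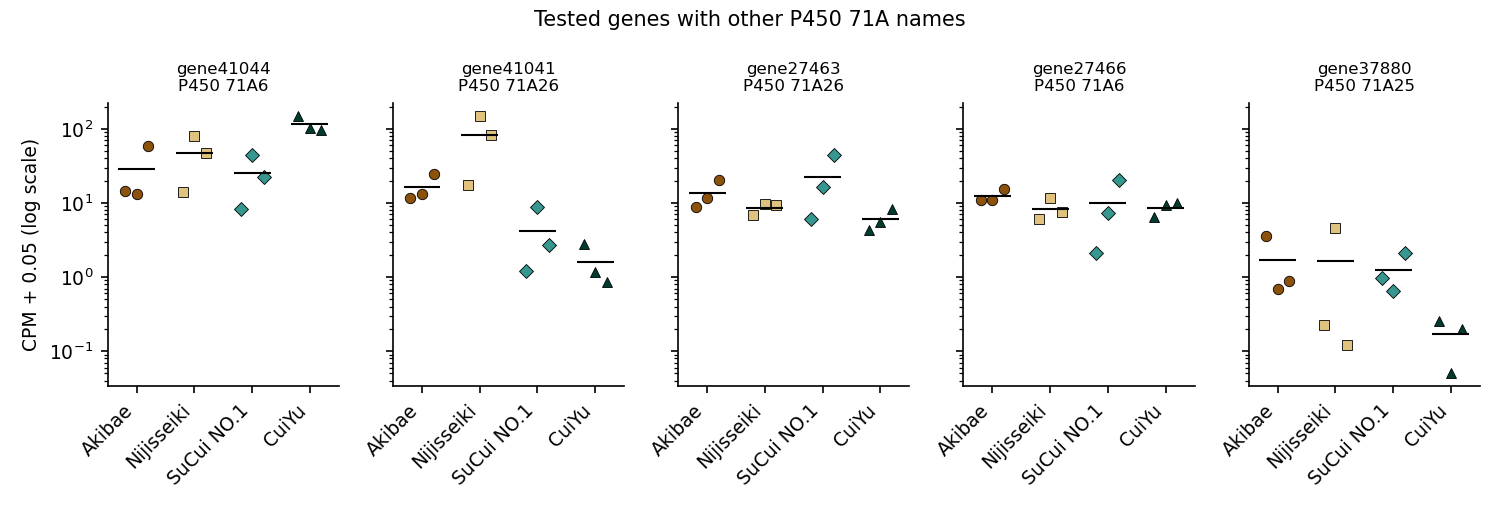
CPM per library (0.05 added, log scale) of the 5 tested genes with other P450 71A names, with 3 points per variety and a bar at their mean. gene41041 is highest in Nijisseiki at 82.9 CPM and gene41044 in CuiYu at 115 CPM, and in no panel do the Akibae libraries stand above all others.

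Among the remaining 295 genes with the P450 domain, 137 were tested. In Akibae against Nijisseiki 2 were higher in Akibae and 3 lower, in Akibae against SuCui NO.1 9 and 15, and in Akibae against CuiYu 11 and 19. The shares of all genes higher in Akibae were 0.962%, 7.62% and 6.99%, and the shares lower 1.57%, 8.66% and 8.09%. In Nijisseiki against SuCui NO.1, 5 were higher in Nijisseiki and 4 lower, with 6.68% and 5.76% of all genes, and in Nijisseiki against CuiYu 11 and 11, with 8.03% and 7.37%. In SuCui NO.1 against CuiYu, 16 were higher in SuCui NO.1 and 12 lower, with 8.86% and 8.58% of all genes.

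Partners of P450s were present in all varieties. The list held 34 genes named NADPH--cytochrome P450 reductase, cytochrome b5 or NADH-cytochrome b5 reductase, or a longer name that begins so, and 19 of them are cytochrome b561 proteins, which are not known as P450 partners. Of 23 tested, 3 were higher and 1 was lower in Akibae than in SuCui NO.1, where 16.3% of all genes were called, and 0 were higher and 3 lower than in CuiYu, where 15.1% were. In Nijisseiki 1 was higher and 1 lower than in SuCui NO.1 (12.4% of all genes), and 0 higher and 4 lower than in CuiYu (15.4%). In SuCui NO.1 2 were higher and 2 lower than in CuiYu (17.4%). In Akibae against Nijisseiki, where 2.53% of all genes were called, edgeR called 0 of the 23. Of these, 5 had an unadjusted p below 0.05, and DESeq2 called 0. The reductase gene24312 (chromosome 8, 4270107 to 4276463), singled out once its values were known, stood at 263 ± 26.1 CPM in CuiYu, 162 ± 8.93 in Nijisseiki, 161 ± 33.3 in Akibae and 151 ± 32.1 in SuCui NO.1. It was lower than in CuiYu in SuCui NO.1 (edgeR, log2 fold change -0.80 ± 0.20, adjusted p = 0.02), Akibae (-0.71 ± 0.20, 0.034) and Nijisseiki (-0.70 ± 0.20, 0.036). The call in SuCui NO.1 ended without CuiYu replicate 1 or 2, and also without replicate 1 or 3 of SuCui NO.1 (0.056 to 0.075). The other calls were lost in 6 and 8 of 17 alternatives (0.051 to 0.14), among them the omission of any 1 CuiYu library, of Akibae replicate 1, of Akibae replicate 2 for the Akibae call and of any 1 Nijisseiki library for the Nijisseiki call.

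The most abundant cytochrome b5 gene by mean FPKM, gene23693 (chromosome 1, 9461011 to 9463308), averaged 178 ± 14.4 CPM in CuiYu and 116 ± 10.9 in Akibae (edgeR, adjusted p = 0.077). It was higher in CuiYu than in Nijisseiki (93.7 ± 18.8 CPM, adjusted p = 0.016, and 0.062 without Nijisseiki replicate 3 or CuiYu replicate 1). A further b5 gene, gene4702 (chromosome 1, 1781739 to 1783385), was highest in SuCui NO.1 at 142 ± 48.4 CPM, followed by Akibae at 107 ± 26.2, Nijisseiki at 105 ± 17.9 and CuiYu at 77.4 ± 6.90. SuCui NO.1 was higher than CuiYu (edgeR, log2 fold change 0.88 ± 0.27, adjusted p = 0.047), a call lost in 11 of 17 alternatives. Among the calls higher in Akibae than in SuCui NO.1 was a cytochrome b5 isoform B gene, gene39373, which was also singled out once its values were known. It had 43.6 CPM in Akibae replicate 3 but 1.31 and 1.20 CPM in replicates 1 and 2, and its call (edgeR, adjusted p = 0.05) was lost in 13 of 16 alternatives, among them the one without that library.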

How the data were processed

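The authors deposited 1 table for the series, with a raw count and an FPKM value per gene and library, a position, a length, and Swiss-Prot and Pfam hits, per the file headers. RNA came from fruit skin by a CTAB method and libraries from an NEB Next Ultra kit, per the labels' protocols. Aligner, counting tool, strand setting and genome build: not given in the sources used here. Counts are whole numbers without normalisation. The deposited FPKM values were used to compare genes and were not tested. The gene length is the authors' value, and other per-sample columns numbered 0. The Chili pears of the growth protocol are not analysed here.

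The test was run in R 4.3.3 with edgeR 4.0.16. A read minimum (filterByExpr, grouped by variety) left 26307 genes, library totals were scaled by TMM, and glmQLFit was fitted with 1 mean per variety to all 12 libraries (common biological coefficient of variation 0.41). The 6 pairs of varieties were tested with glmQLFTest, with Benjamini-Hochberg adjustment over all genes tested and a threshold of 0.05. DESeq2 1.42.0 was an alternative. The standard error is the log2 fold change over the square root of F. Counting intervals of read ratios are exact, at 95%, and 3 reads over 3 libraries served as floor. On simulated data for Akibae against SuCui NO.1 (25742 genes), 53 of 100 genes changed by a log2 of 2 and 92 of 100 changed by 6 were recovered, with 6 unchanged genes called. The changed genes were drawn from those averaging at least 1 CPM. This recovery therefore does not cover gene31857 (0.836 CPM over the 12 libraries) or the copies with fewer reads.

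The members, lists, naming rule and comparisons were chosen with earlier results of these data known. Related genes were taken by Swiss-Prot name, leaving off the ending ", partial", or by the P450 Pfam hit. Named were the 6 copies and the 3 nearest profiles of any copy averaging 1 CPM or more, which was gene27907 alone. Of the nearest 2 genes on each side of each copy, those averaging 1 CPM or more were named, and expressed genes further out were not sought. Added to these were the 2 members with the highest mean FPKM of the 71A, 71 and partner lists. The largest calls of the first 2 lists in SuCui NO.1 against CuiYu were also to be named, of which there were 0. Genes without a Swiss-Prot name are given by identifier, and only where they neighbour a copy. Replicate numbers were not taken as pairs.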

Additional observations from a re-analysis of the deposited data

How the results depend on the processing

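The mean level of gene27907 and that of the 6 copies summed stayed within 1 SD in every variety with RLE size factors and with unscaled library totals. With 3 libraries, leaving out 1 cannot move a mean by 1 SD, so the range is given instead. It was 325 to 430 CPM for gene27907 in Akibae, 0.386 to 1.18 in Nijisseiki, 1.52 to 3.32 in SuCui NO.1 and 0.0348 to 0.110 in CuiYu. The count of other copies called, 0 in each pair, depended on the read minimum and the tool, since 1 copy was tested. It was 1 in Nijisseiki against SuCui NO.1 and 1 in Nijisseiki against CuiYu with no read minimum. With DESeq2 it was 1 in each of Akibae against Nijisseiki and Nijisseiki against SuCui NO.1, and 2 in Nijisseiki against CuiYu. With 1 library left out it ranged from 0 to 1, 0 to 1 and 0 to 2 in the same 3 pairs, and stayed at 0 in the other 3. With a smaller group the minimum let 3 copies besides gene27907 pass in each fit that gave a call. Among them was gene19244, which passed only through Nijisseiki, the variety where it is high. In Akibae against Nijisseiki the call came without Nijisseiki replicate 1 or SuCui NO.1 replicate 3. RLE size factors added no call, and at a minimum mean of 1 CPM 0 of the other copies could be tested. The medians of all genes moved by at most 0.009 between TMM and RLE.

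The replicate block called gene31857 in Nijisseiki against CuiYu (count 1, log2 fold change 3.58, adjusted p = 0.015) and in SuCui NO.1 against CuiYu (count 1, 3.02, 0.026). Of the 5 other P450 71A genes tested, it called 2 in SuCui NO.1 against CuiYu, where 0 were called without it, and the same number as without it in the other 5 pairs. For gene31857 the lowest library was replicate 1 in all 4 varieties. Of 18 same-number pairs of libraries, 5 had deviations that correlated above 0.1 (-0.233 to 0.389), and 6 of 12 libraries matched best with their own number, so the numbers were not taken to pair the samples. No fold change of gene31857 reversed under the alternatives run.

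For the 295 other P450 genes, DESeq2 called 15 to 48 per pair against 5 to 30 with edgeR, and 219 against 118 over the 6 pairs. For the 17 other P450 71A genes it called 11 against 3. Over all genes, DESeq2 called 1643 to 6693 per pair against 665 to 4586 with edgeR. Whether the lists rose more than all genes did was not tested. These alternatives for the related lists were chosen after seeing the data. Depth limits the levels of all copies, where single reads move a level, except that of gene27907 in Akibae.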
